A study of Mus musculus with 96 samples.

Results

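The comparison is between the striatum of mice lacking Msh6 and the striatum of wild-type mice, neither of which carried a Huntington's disease allele. Its members were chosen by library title and are 16 of the 96 libraries of the series, 8 from Msh6-/- mice and 8 from wild-type mice, each with 4 males and 4 females. All were C57BL/6 mice killed at 6 months of age, and 1 library of total RNA per mouse was sequenced from dissected striatum. The labels do not say whether mice were littermates or which part of Msh6 was removed. The series also holds the cerebral cortex of the same mice, 8 Msh6+/- mice, and 3 groups of 8 mice that carried 1 copy of the Q140 knock-in allele (of Htt, the Huntington's disease gene) with both, 1 or neither copy of Msh6 intact. The series crosses Q140 mice with Msh6-deficient mice, and in that design the present groups compare Msh6 genotypes in the absence of Q140.

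Msh6 protein belongs to the DNA mismatch repair system, in which it helps to find single mismatched bases and short unpaired loops in new DNA so that they can be removed. Its relative Msh3 acts on longer loops and is known for driving the growth of CAG repeats in the striatum of Huntington's disease mice. Most neurons of the striatum are GABAergic projection neurons, which do not divide, so mismatch repair in these neurons acts outside DNA replication.

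The start regions below belong to Nat8f2, the largest rise, and to Ifi203 and Mndal, a called pair of relatives, and are shown because each lies in a family of similar genes. Each sequence is the RefSeq promoter window on GRCm38.p6, from 250 bases before to 50 bases after the annotated start, read on the strand of the gene, here the minus strand. The first pair is Nat8f2, at chr6:85869088-85869387, and its relative Nat8f5, at chr6:85820923-85821222. The second pair is the second annotated start of Ifi203, at chr1:173942443-173942742, and the first of Mndal, at chr1:173880138-173880437. Capitals mark matches to the core of the interferon-stimulated response element, spelled as GAAA, any 2 bases and GAAA again, searched on both strands.
Nat8f2: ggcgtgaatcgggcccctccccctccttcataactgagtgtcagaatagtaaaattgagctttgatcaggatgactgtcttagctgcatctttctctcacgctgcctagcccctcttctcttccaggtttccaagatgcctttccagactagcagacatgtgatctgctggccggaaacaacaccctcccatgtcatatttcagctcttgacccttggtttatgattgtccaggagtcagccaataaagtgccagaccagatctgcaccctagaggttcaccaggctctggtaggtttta
Nat8f5: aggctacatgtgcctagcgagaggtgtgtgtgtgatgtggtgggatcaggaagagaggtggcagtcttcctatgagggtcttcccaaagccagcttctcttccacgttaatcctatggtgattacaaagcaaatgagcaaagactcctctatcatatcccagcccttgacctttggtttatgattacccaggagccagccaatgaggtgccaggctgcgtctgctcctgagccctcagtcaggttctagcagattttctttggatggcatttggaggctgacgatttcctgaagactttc
Ifi203: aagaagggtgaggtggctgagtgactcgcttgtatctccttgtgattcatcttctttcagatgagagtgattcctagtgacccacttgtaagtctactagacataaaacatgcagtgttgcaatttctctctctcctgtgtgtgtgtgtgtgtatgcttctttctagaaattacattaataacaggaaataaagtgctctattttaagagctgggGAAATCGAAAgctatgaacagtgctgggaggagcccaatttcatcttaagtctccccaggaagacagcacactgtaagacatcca
Mndal: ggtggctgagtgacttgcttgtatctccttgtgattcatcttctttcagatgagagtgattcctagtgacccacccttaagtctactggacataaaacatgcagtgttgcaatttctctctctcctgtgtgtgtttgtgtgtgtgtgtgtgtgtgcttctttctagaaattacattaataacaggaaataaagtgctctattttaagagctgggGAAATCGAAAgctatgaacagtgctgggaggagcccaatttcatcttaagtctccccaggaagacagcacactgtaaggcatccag
The Ifi203 and Mndal windows printed here matched in 90.7% of alignment columns and carried the same motif, which began 35 bases before the start in Ifi203 and 36 bases before it in Mndal. The other 3 pairings of their annotated starts matched in 49.3%, 49.3% and 52.2% of columns. The other annotated start of Mndal carried it on the opposite strand and the other start of Ifi203 did not. The motif occurred in 3.44% of the 32851 RefSeq promoters of 300 bases. The Nat8f2 window held no match, and its identity to the windows of 6 relatives ran from 49.9% to 55.2%, the last for Nat8f5. A match of letters is a description of the window only. RefSeq windows were found by symbol for 8 of the 17 genes called below.

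Few transcripts differed between Msh6-/- and wild-type striatum at this age. Of 17503 genes tested, 17 passed an adjusted p of 0.05, which is 0.0971%; 8 were higher (0.0457%) and 9 were lower (0.0514%) in Msh6-/- mice. Nat8f2 was the largest rise and Zfp992, a zinc finger gene of chromosome 4, the largest fall, with 7 rises and 5 falls of more than 2-fold. At an unadjusted p under 0.05 there were 650 higher (3.71%) and 471 lower genes (2.69%). The groups did not overlap, with all 8 Msh6-/- mice outside the wild-type range, for 6 higher genes (0.0343%) and 6 lower genes (0.0343%), of which 5 and 4 were among the called. Total counts per library were 17.62 M to 21.11 M in Msh6-/- and 15.88 M to 19.91 M in wild-type striatum, and no 2 libraries of a group agreed within sampling noise. The animal numbers in the labels begin with a prefix of 14 to 33 in Msh6-/- mice and 13 to 21 in wild-type mice, whose meaning is not given. With the prefix as a covariate 13 of the 17 genes were called, and among the 3 Msh6-/- and 8 wild-type mice with a prefix of at most 21 only Msh6 and Nat8f2 were, although all 17 kept their direction. In that smaller fit the log2 fold change of Ifi203 was 1.37, of Pcdha8 1.62, of Sec24d -0.50, of Carns1 0.21 and of Mndal 0.89. Mean Ifi203 was 3.86 CPM in the 3 Msh6-/- mice with a low prefix and 3.63 CPM in the other 5, against 1.45 CPM in wild-type mice. Mean Zfp991 was 0.861 CPM and 0.461 CPM in the same 2 sets of Msh6-/- mice, against 1.53 CPM in wild-type mice, so the low-prefix mice lay nearer to wild type for that gene. Mean Zfp992 was 0.632 CPM and 0.222 CPM in the same order, against 1.40 CPM in wild-type mice. Mean Pcdha1 was 6.26 CPM and 3.67 CPM, against 1.90 CPM, so there the low-prefix mice lay farther from wild type. Mouse 14-3 was the highest of the 3 low-prefix mice for each of these genes and weighs on their means. It had 9.22 CPM of Pcdha1, against 4.05 and 5.51 CPM in the other low-prefix Msh6-/- mice. For Ifi203 it had 5.71 CPM, against 2.60 and 3.28 CPM, and for Zfp992 1.22 CPM, against 0.499 and 0.176 CPM. Both sets of Msh6-/- mice lay on the same side of wild type for these genes. All 3 low-prefix Msh6-/- mice were female, and every Msh6-/- male had a prefix above 21. The fit with a prefix of at most 21 thus held no Msh6-/- male. The other set held those males and the female 32-1. Sex and prefix can therefore hardly be told apart between these 2 sets, and the part of sex was not tested. The cause of the lost calls was not tested. Above a prefix of 21 there is no wild-type mouse, so prefix and genotype cannot be told apart there.

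**Figure D1:**
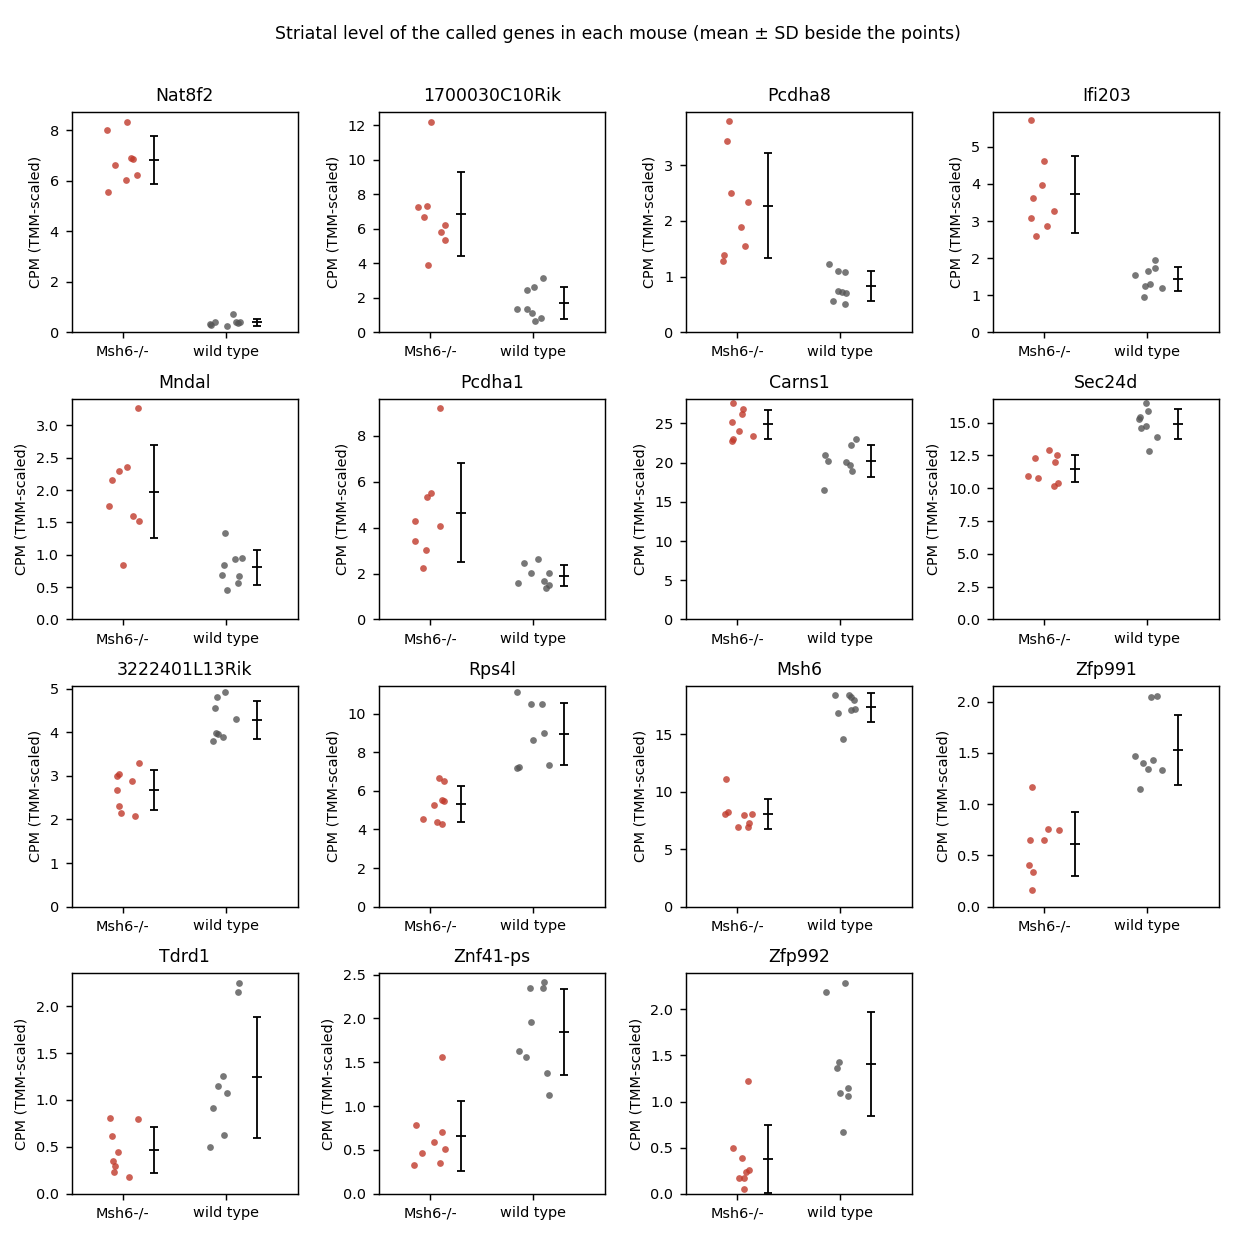
Each panel gives the level of 1 of the called genes described here as counts scaled to library size (CPM, TMM-scaled) in each of the 8 Msh6-/- mice (red, left) and the 8 wild-type mice (grey, right), with the mean and SD beside the points; of the overlapping pair of 1700030C10Rik identifiers the more abundant is shown. Nat8f2 lies between 5.57 and 8.34 CPM in Msh6-/- mice, against 0.256 to 0.734 CPM in wild-type mice.

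Msh6 itself (ENSMUSG00000005370; chromosome 17, 87975062 to 87990892, GRCm38) followed the labels. Its lowest, median and highest levels were 6.93, 8.03 and 11.1 CPM in Msh6-/- striatum, against 14.6, 17.6 and 18.4 CPM in wild-type striatum. The groups did not overlap, yet every Msh6-/- mouse kept a measurable Msh6 count. The mean was 8.09 ± 1.32 CPM in Msh6-/- and 17.4 ± 1.28 CPM in wild-type mice (SD, n = 8 each), a log2 fold change of -1.10 ± 0.07 (SE; edgeR adjusted p = 1.05e-17), or 0.467-fold. Counts are summed over the whole gene, so whether the remaining reads come from exons outside a deletion was not tested. The end of Msh6 overlaps the end of Fbxo11, a ubiquitin ligase adaptor on the other strand, whose log2 fold change was -0.03 ± 0.03.

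No other tested gene of mismatch repair was called. Of 24 tested genes of the pathway, 1 was called lower, Msh6, and none was called higher; at an unadjusted p under 0.05 there were 1 higher and 3 lower, with a median log2 fold change of -0.01. Msh3, the relative that acts on longer loops, ran from 24.3 to 26.8 CPM (median 25.2) in Msh6-/- mice, against 21.6 to 29.3 CPM (median 25.8) in wild-type mice. The Msh6-/- values lay within the wild-type range, and the log2 fold change was -0.03 ± 0.05 (edgeR adjusted p = 0.970). Per transcript length the deposited means were 1.85 FPKM for Msh6 and 2.21 FPKM for Msh3 in Msh6-/- mice, against 3.97 and 2.25 FPKM in wild-type mice. On that scale Msh6 lay below Msh3 in Msh6-/- striatum and above it in wild-type striatum. Of the DNA polymerase delta subunits, Pold2 stood at 0.15 ± 0.06 and Pold3 at -0.08 ± 0.04, neither called. Msh4 alone of the list was too low to test, with 1 to 5 reads per library in Msh6-/- and 0 to 5 in wild-type striatum.

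Nat8f2 (ENSMUSG00000033634; chromosome 6, 85865422 to 85869158) encodes a member of the N-acetyltransferase 8 family, membrane enzymes of the endoplasmic reticulum that are best known from kidney and liver. Its counts were 95 to 171 reads per library in Msh6-/- striatum and 5 to 14 reads in wild-type striatum. The lowest, median and highest levels were 5.57, 6.76 and 8.34 CPM in Msh6-/- mice, against 0.256, 0.391 and 0.734 CPM in wild-type mice. No value of either group came near the other. The log2 fold change was 4.08 ± 0.20 (edgeR adjusted p = 1.54e-21), or 17.0-fold. Per length it averaged 2.01 ± 0.298 FPKM in Msh6-/- and 0.117 ± 0.043 FPKM in wild-type striatum (SD, n = 8 each). It was called under each of the 12 alternative settings of this comparison and with each of the 16 libraries left out, with log2 fold changes of 1.43 to 4.27; the lowest is on the log2(FPKM + 1) scale, which compresses low genes.

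Among 7 tested genes of the Nat8 family Nat8f2 was the only one called in this comparison. The family's median log2 fold change was 0.21, against -0.00 over all genes tested. In Q140 Msh6-/- against Q140, 2 of the 7 were called higher, Nat8f2 among them. Nat8f3, a neighbour within the same cluster, ranged from 2.26 to 3.56 CPM (median 2.75) in Msh6-/- mice, against 1.02 to 2.56 CPM (median 1.76) in wild-type mice. The ranges overlapped at their ends, and the log2 fold change was 0.65 ± 0.17 (edgeR adjusted p = 0.187). Nat8f4 stood at 0.21 ± 0.07 (edgeR adjusted p = 0.611), Nat8f5 at 0.20 ± 0.20, Nat8 at 0.21 ± 0.18 and Nat8f1 at 0.01 ± 0.09. Nat8l, which makes N-acetylaspartate in neurons and was by far the most abundant of them per length, at 38.5 FPKM in Msh6-/- and 37.2 FPKM in wild-type striatum, stood at 0.05 ± 0.04. Within 1 Mb of Nat8f2, 43 other genes were tested, of which 2 were higher and 1 was lower at an unadjusted p under 0.05. Nat8f6 and Nat8f7 were under the count filter in both groups.

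Ifi203 and Mndal are interferon-inducible members of the Ifi200 (HIN-200) family, whose relatives bind DNA in the nucleus or cytoplasm. Ifi203 (ENSMUSG00000039997; chromosome 1, 173920407 to 173942672) had a lowest, median and highest level of 2.60, 3.44 and 5.71 CPM in Msh6-/- striatum, against 0.949, 1.42 and 1.94 CPM in wild-type striatum. The groups did not overlap, with a log2 fold change of 1.34 ± 0.18 (edgeR adjusted p = 3.68e-06), or 2.54-fold. Mndal (ENSMUSG00000090272; chromosome 1, 173849126 to 173942491) had 0.849, 1.95 and 3.27 CPM in Msh6-/- mice, against 0.461, 0.766 and 1.34 CPM in wild-type mice. For Mndal 7 of 8 Msh6-/- mice lay above the highest wild-type mouse, and the log2 fold change was 1.30 ± 0.22 (edgeR adjusted p = 7.93e-04). The annotated bodies of both genes overlap on the same strand, so how reads were divided between them is uncertain.

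No other tested gene of DNA sensing or of the interferon response was called. Of 7 tested genes of the Ifi200 and DNA-sensing list 2 were called, Ifi203 and Mndal. Aim2, the cytosolic DNA receptor that starts inflammasomes, stood at 0.03 ± 0.23, Mb21d1 (cGAS, the sensor that makes cyclic GMP-AMP) at -0.07 ± 0.19 and Tmem173 (STING, its receptor) at -0.04 ± 0.11. Irf3, the transcription factor downstream of STING, ran from 19.5 to 23.4 CPM in Msh6-/- mice, against 14.6 to 21.3 CPM in wild-type mice, with a log2 fold change of 0.22 ± 0.06 (edgeR adjusted p = 0.374). Of 21 tested type I interferon response genes edgeR called 0, DESeq2 called 0 and limma voom called 0, with 2 higher and 0 lower at an unadjusted p under 0.05, and the median log2 fold change was -0.10. Summed, that list ran from 97.2 to 123 CPM in Msh6-/- and from 94.0 to 127 CPM in wild-type striatum. Of 18 tested major histocompatibility genes, which interferon also induces, none was called by the 3 tools and none had an unadjusted p under 0.05.

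Of the called identifiers 3 lay in or beside the clustered protocadherins of chromosome 18, adhesion proteins of which single neurons express different random combinations of first exons. Pcdha8 (ENSMUSG00000103800) had 1.29, 2.12 and 3.80 CPM (lowest, median, highest) in Msh6-/- striatum, against 0.515, 0.730 and 1.23 CPM in wild-type striatum. The groups did not overlap, though the highest wild-type mouse lay just below the lowest Msh6-/- mouse, and the log2 fold change was 1.41 ± 0.24 (edgeR adjusted p = 7.93e-04). Pcdha1 (ENSMUSG00000103442) had 2.26, 4.18 and 9.22 CPM in Msh6-/- mice, against 1.36, 1.84 and 2.62 CPM in wild-type mice. Here 7 of 8 Msh6-/- mice exceeded all wild-type mice, with a log2 fold change of 1.27 ± 0.22 (edgeR adjusted p = 7.93e-04). The alpha genes share their last exons and overlap on 1 strand, so the division of reads among them is uncertain.

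No other protocadherin of the cluster was called in this comparison. The family counts were made after Pcdha1 and Pcdha8 had been seen among the called genes. Of 14 tested alpha identifiers 2 were called higher and the median log2 fold change was -0.06. Of 22 beta genes edgeR and DESeq2 called none, 0 were higher and 7 were lower at an unadjusted p under 0.05, and the median was -0.18, within a range of -0.73 to 0.12. Of 21 gamma genes edgeR and DESeq2 called none, 0 were higher and 4 were lower at an unadjusted p under 0.05, with a median of -0.07. Over all genes tested 2.69% were lower at that p. In Q140 Msh6-/- against Q140, 6 of the 22 beta genes were lower and 0 higher at that p. Of the 21 gamma genes 10 were lower there, 1 of them called, and 1 was higher. Over all 17503 genes tested 450 were lower with Q140. The noncoding RNA 3222401L13Rik (chromosome 18, 37655451 to 37661742), named after its values were seen, fell to a median of 2.78 CPM in Msh6-/- mice (2.07 to 3.30), against 4.14 CPM in wild-type mice (3.79 to 4.92). Its groups did not overlap, with a log2 fold change of -0.67 ± 0.13 (edgeR adjusted p = 0.00351), but with the animal number prefix as a covariate it was no longer called.

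The remaining rises were a noncoding locus and Carns1. A pair of overlapping identifiers on chromosome 12 that share the symbol 1700030C10Rik, named after their values were seen, had log2 fold changes of 2.04 ± 0.28 (ENSMUSG00000099759; edgeR adjusted p = 5.26e-06) and 1.88 ± 0.30 (ENSMUSG00000091071; edgeR adjusted p = 1.90e-04). The first had 3.90, 6.46 and 12.2 CPM in Msh6-/- mice, against 0.665, 1.35 and 3.16 CPM in wild-type mice, without overlap; because the second lies inside it, they count as 1 locus. Carns1 (chromosome 19, 4164324 to 4175479), the synthase that joins beta-alanine and histidine into carnosine, had 22.8, 24.7 and 27.6 CPM in Msh6-/- striatum, against 16.5, 20.2 and 23.0 CPM in wild-type striatum. Only the highest wild-type mouse reached the Msh6-/- range, and 6 of 8 Msh6-/- mice lay above the highest wild-type mouse. Its log2 fold change of 0.30 ± 0.06 (edgeR adjusted p = 0.0195) was the smallest of the called rises, and it was lost when 1 of 5 libraries was left out in turn (Msh6-/- 24-3, 29-2 or 32-1, wild type 16-1 or 16-2), with the prefix as a covariate, with a prefix of at most 21 and with only the 16 libraries fitted.

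No other tested gene within 1 Mb of Msh6 was called. Within 1 Mb of Msh6, 16 other genes were tested and edgeR called 0 of them, while at an unadjusted p under 0.05 there were 3 higher and 3 lower. That is 37.5%, against 8.33% of 24 genes at 1 to 5 Mb, 1.28% of 78 genes at 5 to 20 Mb, 6.82% of 674 genes farther along the chromosome and 6.40% of all genes tested. Mcfd2, a cargo receptor subunit for clotting factors, had 54.7 to 66.6 CPM (median 57.5) in Msh6-/- mice, against 61.3 to 68.1 CPM (median 65.8) in wild-type mice. The ranges overlapped, and its log2 fold change was -0.15 ± 0.03 (edgeR adjusted p = 0.0626; DESeq2 adjusted p = 0.0183). Rhoq, a small GTPase of membrane traffic, stood at 0.15 ± 0.04 (edgeR adjusted p = 0.143), and its neighbour Pigf, of the glycolipid anchor pathway, at -0.28 ± 0.08 (edgeR adjusted p = 0.384). Ppp1r21 stood at 0.06 ± 0.03, and Prkce, protein kinase C epsilon, 1.32 Mb away, at -0.14 ± 0.03 (edgeR adjusted p = 0.103; DESeq2 adjusted p = 0.0424).

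On chromosome 4, 3 members of the zinc finger family, most of whose proteins bind DNA, fell. Zfp992 (146449023 to 146470292) had 0.0538, 0.247 and 1.22 CPM (lowest, median, highest) in Msh6-/- striatum, against 0.666, 1.25 and 2.28 CPM in wild-type striatum. Zfp991 (147132038 to 147180579) had 0.161, 0.651 and 1.17 CPM in Msh6-/- mice, against 1.15, 1.41 and 2.06 CPM in wild-type mice. The pseudogene Znf41-ps (145825237 to 145829942) had 0.323, 0.555 and 1.56 CPM in Msh6-/- mice, against 1.13, 1.79 and 2.41 CPM in wild-type mice. In each of the 3, 7 of 8 Msh6-/- mice lay below all wild-type mice, and the mouse 14-3 lay within the wild-type range. The log2 fold changes were -1.84 ± 0.30 for Zfp992, -1.32 ± 0.23 for Zfp991 and -1.46 ± 0.22 for Znf41-ps, with edgeR adjusted p of 4.12e-04, 0.00101 and 1.16e-04. Zinc finger genes of this kind have many close copies, so the assignment of reads to these is uncertain. The ribosomal protein pseudogene Rps4l (chromosome 6), uncertain for the same reason, had a median of 5.36 CPM in Msh6-/- and 8.83 CPM in wild-type mice without overlap, a log2 fold change of -0.74 ± 0.14 (edgeR adjusted p = 0.00456).

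Sec24d and Tdrd1 also fell. Sec24d (chromosome 3, 123267455 to 123365641), a cargo-binding subunit of the COPII coat that carries proteins out of the endoplasmic reticulum, had 10.2, 11.4 and 12.9 CPM in Msh6-/- striatum, against 12.8, 15.0 and 16.5 CPM in wild-type striatum. Only the highest Msh6-/- mouse touched the wild-type range, and the log2 fold change was -0.37 ± 0.07 (edgeR adjusted p = 0.0106), lost with the prefix as a covariate. Tdrd1 (chromosome 19, 56826209 to 56870012), a Tudor-domain protein of the germline piRNA pathway, had 0.178, 0.399 and 0.807 CPM in Msh6-/- mice, against 0.503, 1.11 and 2.25 CPM in wild-type mice. The groups overlapped, with 5 of 8 Msh6-/- mice below all wild-type mice, and its log2 fold change of -1.40 ± 0.29 (edgeR adjusted p = 0.0195) was lost in limma voom, on both FPKM scales, with the prefix as a covariate, with a prefix of at most 21, with only the 16 libraries and on leaving out any of 6 libraries (Msh6-/- 14-3, 26-2, 29-2 or 32-1, wild type 13-1 or 13-2). Rnf17, another germline Tudor protein, and Rec8, the meiotic cohesin subunit, both named after their values were seen, stood just above the threshold. Rnf17 ran from 0.0586 to 1.29 CPM in Msh6-/- and from 1.68 to 2.92 CPM in wild-type mice, without overlap, with a log2 fold change of -1.42 ± 0.33 (edgeR adjusted p = 0.0626). Rec8 ran from 1.38 to 4.49 CPM in Msh6-/- and from 3.21 to 7.64 CPM in wild-type mice, with a log2 fold change of -0.90 ± 0.20 (edgeR adjusted p = 0.0577; DESeq2 adjusted p = 0.0182).

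The Q140 mice gave the same contrast in 16 other animals, 8 Q140 Msh6-/- against 8 Q140, of which none is in the main comparison. There 31 genes were called (0.177%), 20 higher and 11 lower. All 17 genes called without Q140 had the same direction with it, and 14 were called again. Carns1, Tdrd1 and Zfp992 were not. The animal number prefix ran from 21 to 38 in Q140 Msh6-/- mice and from 14 to 29 in Q140 mice. It was thus higher with Msh6 loss, as in the main comparison, and its part in these shared changes was not tested. Nat8f2 had a log2 fold change of 3.79 ± 0.19 with Q140, Ifi203 of 1.27 ± 0.18 and Znf41-ps of -1.77 ± 0.26. Carns1 stood at 0.05 ± 0.06 with Q140, against 0.30 ± 0.06 without it. Rnf17, next to the threshold without Q140, was called lower with it, at -2.15 (edgeR adjusted p = 0.00127). Rhoq, farther from the threshold without Q140 (edgeR adjusted p = 0.143), was called higher with it, at 0.19 (edgeR adjusted p = 0.0205).

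Part of the Q140 count rested on 1 library. The choroid plexus list summed to 2827 CPM in the library Q140 Msh6-/- 21-3, against a median of 49.8 CPM in its group and 39.9 CPM in Q140 striatum, and Ttr, the transport protein that choroid plexus makes, was among the called rises. Without that library 14 genes were called, 6 higher and 8 lower, and 12 of these were among the 17. Of the 1104 genes with an unadjusted p under 0.05 without Q140 that were not called, 56.4% had the same sign with it, against 52.6% of all 17503 genes, and across all genes, which are not independent, r was 0.17. The test of the difference between both contrasts called 0 genes in edgeR (0%), with 876 at an unadjusted p under 0.05, and 1 in DESeq2; that gene was Dennd1b, a regulator of Rab GTPases, at -0.21 ± 0.05 without Q140 and 0.14 with it (edgeR adjusted p of the difference = 0.0651).

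**Figure D2:**
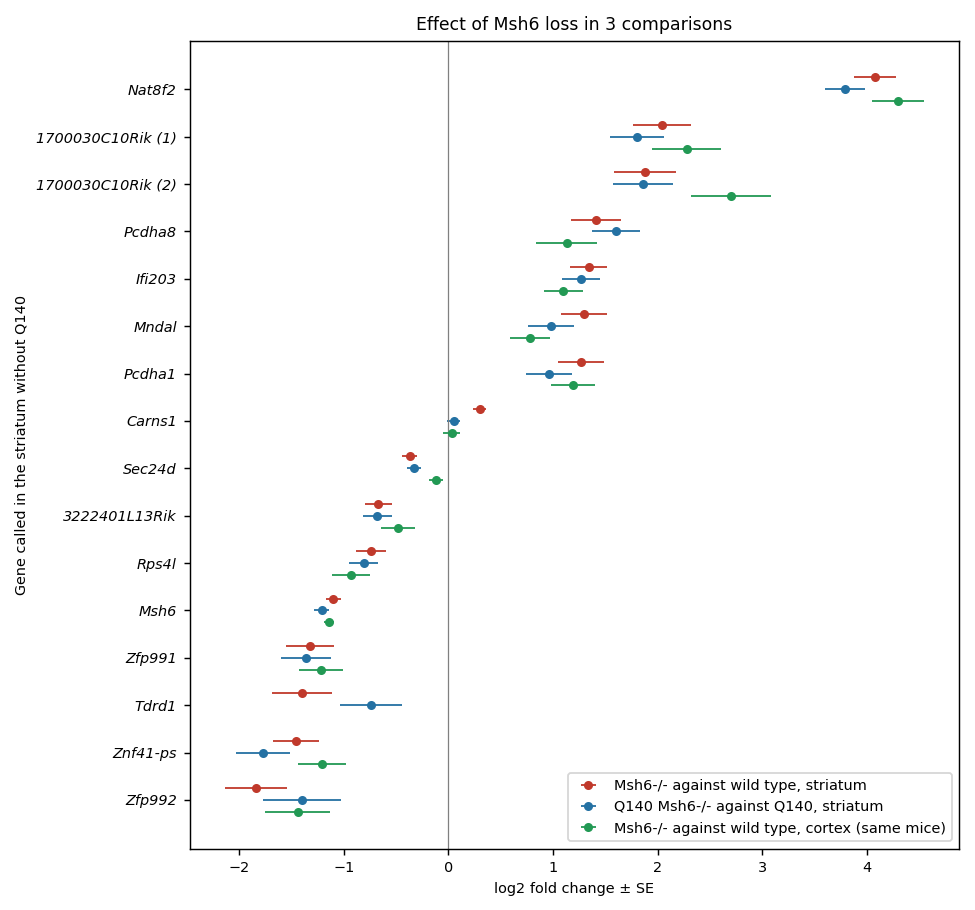
For 16 of the 17 identifiers called in striatum without Q140, points give the log2 fold change and bars the SE for Msh6-/- against wild type in striatum (red), Q140 Msh6-/- against Q140 in striatum (blue, other mice) and Msh6-/- against wild type in cortex (green, the same mice). The blue points lie on the red side of 0 for all 16 shown, and Carns1 is near 0 in both other comparisons.

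With 1 Msh6 allele lost, all 17 log2 fold changes had the same sign and a smaller size. The 8 Msh6+/- mice are compared with the same wild-type mice, so their values are set side by side with no test of likeness. In that contrast 2 genes were called (0.0114%), Msh6 with a log2 fold change of -0.33 ± 0.06 and Nat8f2 with 1.33 ± 0.26 (edgeR adjusted p = 0.0367 each). Median Msh6 was 17.6 CPM in wild-type, 13.9 CPM in Msh6+/- and 8.03 CPM in Msh6-/- mice. Median Nat8f2 was 0.391 CPM in wild-type, 0.962 CPM in Msh6+/- and 6.76 CPM in Msh6-/- mice. Ifi203 had medians of 1.42, 1.63 and 3.44 CPM in the same order, and Mndal of 0.766, 0.777 and 1.95 CPM. For Ifi203 and Mndal the Msh6+/- and wild-type ranges overlapped almost entirely, with log2 fold changes of 0.06 ± 0.20 and 0.08 ± 0.25. Over the 17 genes the log2 fold change of Msh6+/- mice was 0.04 to 0.77 of that of Msh6-/- mice, with a median of 0.30. The animal number prefix also rose in this order, from 13 to 21 in wild-type, 13 to 26 in Msh6+/- and 14 to 33 in Msh6-/- mice. Its part in these values was not tested.

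**Figure D3:**
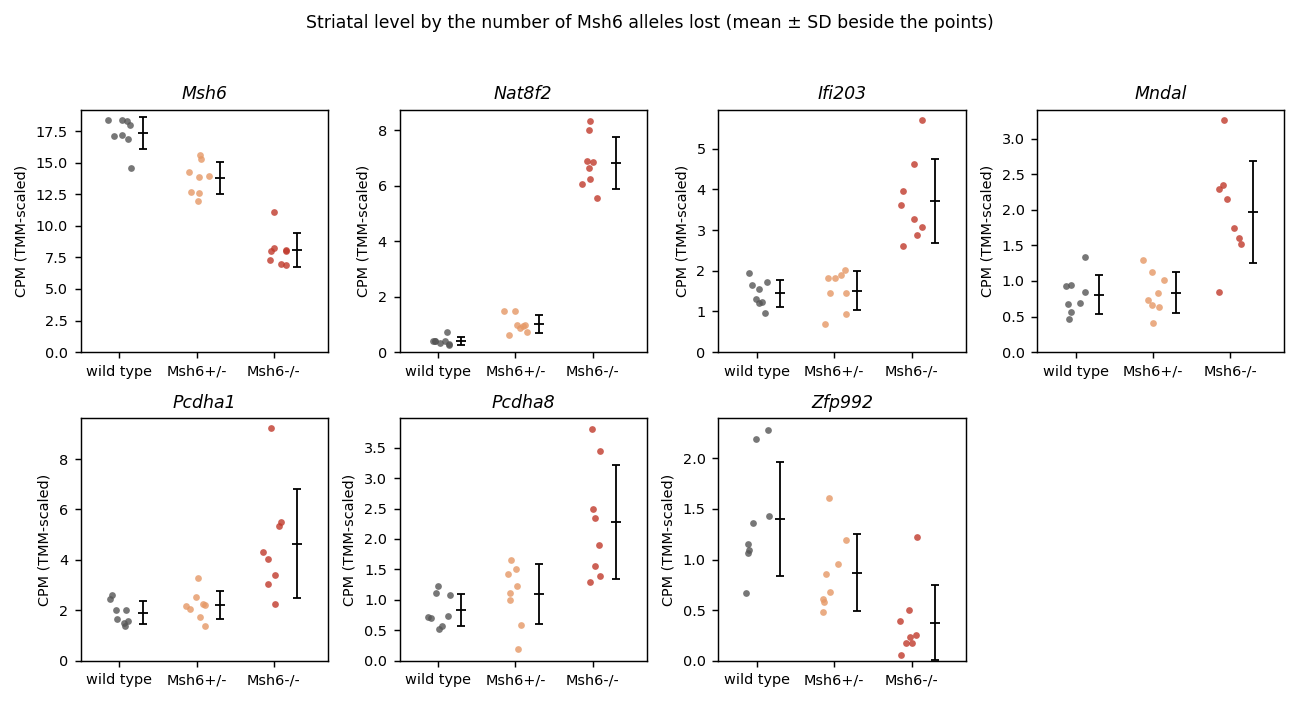
Each panel gives the striatal CPM of 1 gene in each mouse by Msh6 genotype, from wild type through Msh6+/- to Msh6-/- (8 mice each), with mean and SD beside the points. Median Nat8f2 is 0.391, 0.962 and 6.76 CPM in that order, and median Msh6 is 17.6, 13.9 and 8.03 CPM.

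The cortex of the same 16 mice carried much of the same set; because the animals are shared this is no independent sample. There 23 of 17622 genes were called (0.131%), 14 higher and 9 lower. Of the 17 striatal genes 16 could be tested in cortex and 11 were called, all in the same direction; Tdrd1 was too low to test. Nat8f2 had a cortical log2 fold change of 4.30 ± 0.25 and Ifi203 of 1.10 ± 0.19, whereas Carns1 stood at 0.03 ± 0.08 and Sec24d at -0.12 ± 0.07. Rec8 was called in cortex, at -1.12 (edgeR adjusted p = 0.00106), as was Col5a2, a fibrillar collagen chain, at 0.97 ± 0.21 in cortex and 0.85 ± 0.20 in striatum (edgeR adjusted p = 0.0972 in striatum).

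The effect of Msh6 loss differed between striatum and cortex for 1 gene (0.00568%) when each animal was its own block. That gene was Wwox, an oxidoreductase with WW domains. In striatum it ran from 11.3 to 13.7 CPM in Msh6-/- and from 9.76 to 13.4 CPM in wild-type mice, overlapping ranges with a log2 fold change of 0.07 ± 0.05. In cortex it ran from 23.1 to 33.5 CPM in Msh6-/- and from 16.6 to 20.8 CPM in wild-type mice, without overlap and with 0.59 ± 0.06. The difference of effects, striatum minus cortex, was -0.52 ± 0.08 (edgeR adjusted p = 0.0407). Without the animal block it was not called.

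Both sexes showed the 17 changes in the same direction. Nat8f2 had log2 fold changes of 4.25 ± 0.29 in males and 3.92 ± 0.28 in females, and Ifi203 of 1.25 ± 0.26 in males and 1.44 ± 0.25 in females. The widest gaps were in Zfp991, with -2.04 ± 0.33 in males and -0.72 ± 0.30 in females, and in Mndal, with 1.83 ± 0.32 and 0.84 ± 0.30. The test of the male effect minus the female effect called 0 genes in edgeR (0%), with 630 at an unadjusted p under 0.05. Every Msh6-/- male had an animal number prefix above 21, where there is no wild-type mouse. Of the Msh6-/- females only 32-1 did. In males genotype and prefix thus cannot be told apart, and the part of prefix in the gaps between the sexes was not tested.

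The libraries carried striatal markers at similar summed levels. Of 40 tested genes that mark striatal projection neurons, edgeR, DESeq2 and limma voom called 0, 1 was higher and 0 were lower at an unadjusted p under 0.05, and the median log2 fold change was 0.03. Their summed level was 29864 to 37651 CPM in Msh6-/- and 31345 to 35787 CPM in wild-type striatum. The interneuron, cortical neuron, astrocyte, microglial, endothelial and pericyte lists had 0 called genes in all 3 tools and at most 2 genes with an unadjusted p under 0.05 each, with medians between -0.03 and 0.03. No gene was called in the thalamic and septal list (median -0.08 over 7 genes, 1 with an unadjusted p under 0.05) or the choroid plexus list (median -0.00 over 7 genes, none with an unadjusted p under 0.05), which summed to 23.5 to 55.5 CPM in Msh6-/- and 26.8 to 49.5 CPM in wild-type striatum. Of 10 oligodendrocyte precursor genes the 3 tools called 0, with 3 higher at an unadjusted p under 0.05 and a median of 0.08. In whole tissue a change in the number of cells of a type and a change in RNA per cell cannot be told apart.

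Oligodendrocyte genes lay slightly higher in Msh6-/- striatum without any being called. Of 12 tested genes 12 had a log2 fold change above 0 and 6 an unadjusted p under 0.05, with a median of 0.15. Of all 17503 genes tested, 8713 were above 0 and 650 (3.71%) were higher at that p, with a median of -0.00. Of the 12, edgeR, DESeq2 and limma voom called 0. Mbp, a major myelin protein, stood at 0.21 ± 0.06 (edgeR adjusted p = 0.388), Mag, an adhesion protein of the inner myelin layer, at 0.18 ± 0.07, and Sox10, a transcription factor of the lineage, at 0.23 ± 0.07. The summed list ran from 6581 to 8373 CPM in Msh6-/- (median 7256) and from 5706 to 7496 CPM in wild-type striatum (median 6372). In Msh6+/- against the same wild-type mice 12 of 12 were above 0, with a median of 0.10. In Q140 Msh6-/- against Q140 1 of 12 was above 0, with a median of -0.06, and in cortex 9 of 12 were, with a median of 0.05. Over all genes tested, 8872 of 17503 were above 0 in Msh6+/- mice, 8972 of 17503 with Q140 and 8899 of 17622 in cortex. Klk6, a secreted protease made by oligodendrocytes, stood at 0.53 ± 0.12 (edgeR adjusted p = 0.0626; DESeq2 adjusted p = 0.0183), and C1ql1, from the precursor list, at 0.38 ± 0.09 (edgeR adjusted p = 0.106). With the oligodendrocyte list as a covariate, added after the values were seen, 16 of the 17 genes were called. Carns1 was not, with a log2 fold change of 0.24 (edgeR adjusted p = 0.173). Over all settings, this one included, its log2 fold change ran from 0.21 to 0.33. The part of these markers in the called genes was not tested further.

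Blood transcripts differed among the mice, and their part in the results was not tested. All 4 tested blood genes had an unadjusted p under 0.05 and none was called by the 3 tools, with a median log2 fold change of 2.62. In cortex of the same mice all 4 had an unadjusted p under 0.05 and a median of 2.08, whereas with Q140 0 of 4 were above 0 and the median was -0.60. The summed blood list ran from 0.0488 to 54.1 CPM in Msh6-/- (median 4.92) and from 0.0535 to 11.6 CPM in wild-type striatum (median 0.320), with the highest value in mouse 29-2. Without mouse 29-2 15 of the 17 genes were called, Carns1 and Tdrd1 being lost.

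**Figure D4:**
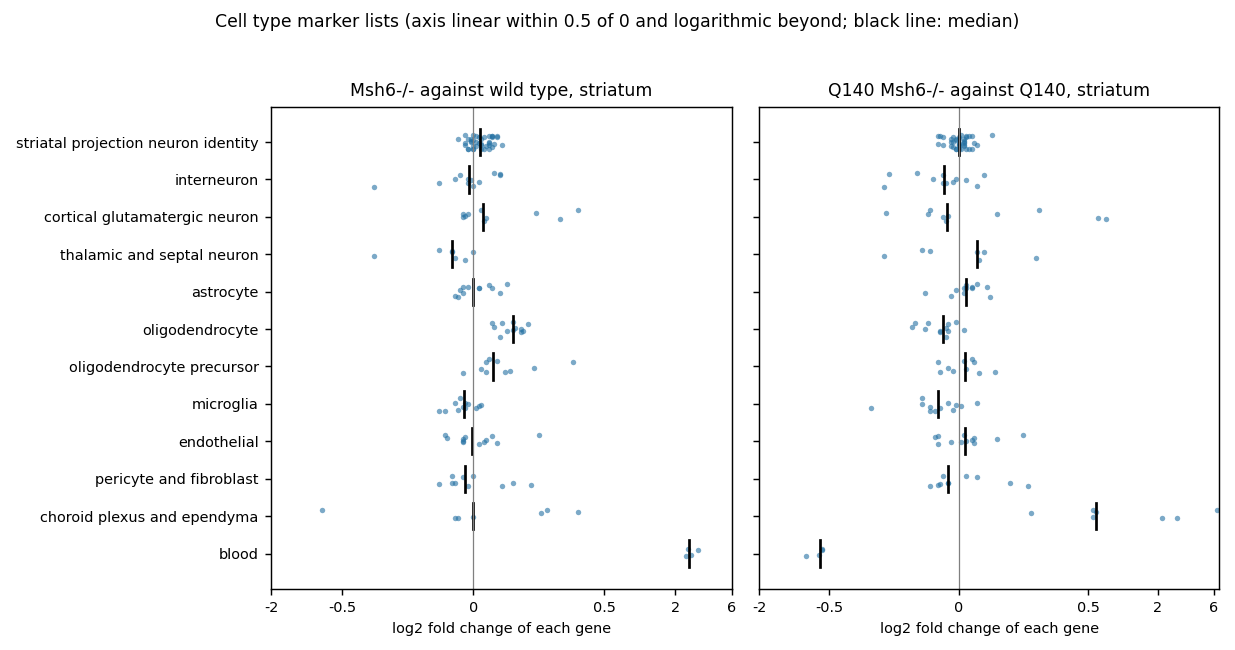
Each point is the log2 fold change of 1 marker gene, grouped by cell type list, for Msh6-/- against wild type (left panel) and Q140 Msh6-/- against Q140 (right panel), with the list median as a black line and an axis that is linear within 0.5 of 0 and logarithmic beyond. Oligodendrocyte genes lie above 0 in the left panel (median 0.15) and mostly below it in the right (median -0.06), and the blood genes stand apart at 2.62.

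Damage and stress lists showed no called gene. Of 25 base excision and strand break repair genes edgeR, DESeq2 and limma voom called 0 and none had an unadjusted p under 0.05 (median 0.01). Of 22 p53 targets and checkpoint genes they called 0, with 2 higher and 1 lower at an unadjusted p under 0.05 (median -0.01). Of 18 oxidative phosphorylation genes they called 0, with 2 higher at an unadjusted p under 0.05 (median 0.02). Log2 fold changes above 0 were seen for 16 of these 18, against 8713 of all 17503 genes tested. In Q140 Msh6-/- against Q140 7 of the 18 were above 0, in cortex 9 and in Msh6+/- mice 3. Of 12 immediate early genes edgeR, DESeq2 and limma voom called 0 and none had an unadjusted p under 0.05 (median -0.07). Their sums were 648 to 1768 CPM in Msh6-/- and 637 to 1819.9 CPM in wild-type mice. Htt ran from 222 to 257 CPM in Msh6-/- and from 225 to 247 CPM in wild-type mice, with a log2 fold change of -0.01 ± 0.03 (edgeR adjusted p = 0.979).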

How the data were processed

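The authors deposited a table of read counts per gene and a table of FPKM values, each with 48795 genes and the 96 libraries. Per the labels' protocols, RNA was extracted with Qiagen RNeasy and libraries made with TruSeq stranded kits. Per the submitters' processing notes, STAR 2.7.5c, SAMtools 1.10 and HTSeq 0.12.3 were used with GRCm38; no source used here gives the strand setting or annotation release, so overlapping genes and near-identical copies are uncertain. Coordinates come from GENCODE M21 on GRCm38.

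The deposited counts were fitted with edgeR 4.0.16 (R 4.3.3), quasi-likelihood, TMM scaling, filterByExpr (minimum count 10, minimum total 15), genotype and sex as terms, over the 48 striatal or the 48 cortical libraries, after a test on simulated data. The tissue difference used the 32 libraries of both groups with the animal as a replicate block; the labels give each animal number for both tissues. Adjusted p is Benjamini-Hochberg over all genes tested, threshold 0.05. Log2 fold changes carry SE, CPM values SD. Nothing says whether animals shared a litter, so litter is not in the fits. Each p-value sets a difference against the spread among the libraries of its fit. For striatum that fit covers all 48 striatal libraries, Q140 mice included. Alternatives used DESeq2 1.42.0, limma 3.58.1 (voom, or limma-trend on log2 of the authors' FPKM plus 0.1 or 1, genes with a mean of at least 0.1), RLE scaling and others. The comparison and its 21 gene lists (334 genes) were chosen with earlier results of these data known. Named were Msh6, Htt, the called genes (up to 15 each way), list members that were called, mismatch repair genes, genes within 1 Mb of Msh6 and the top genes of other comparisons; others are said to be named after their values were seen. Some genes, 1 of them called, are counted but not reported here by name. Prefix is the first part of the animal number. Klk6, C1ql1, Mbp, Mag, Sox10, Irf3, Aim2, Mb21d1, Tmem173, Col5a2, Prkce and the uncalled Nat8 genes were also chosen after their values were seen.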

Additional observations from a re-analysis of the deposited data

Results flagged for a closer look

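Of 82 groups of 8 mice examined for the named genes, 8 held a mouse whose gap to its nearest neighbour took more of the group's range than Dixon's criterion allows; chance gives about 1 in 20. The mouse Msh6-/- 14-3 was the highest of its group for 1700030C10Rik (ENSMUSG00000099759) at 12.2 CPM, for Pcdha1 at 9.22 CPM, for Zfp992 at 1.22 CPM and for Znf41-ps at 1.56 CPM. Without it these 4 genes were still called. The mouse Msh6-/- 24-3 was highest for Msh6 itself, at 11.1 CPM with the next at 8.24 CPM, and for Col5a2 at 7.70 CPM. Among wild-type mice 16-2 was lowest for Msh6 at 14.6 CPM, and 20-2 was highest for Nat8f2 at 0.734 CPM, still below the lowest Msh6-/- mouse at 5.57 CPM.

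The effect of Msh6 loss on Wwox differed between tissues by the test of the difference itself, at -0.52 (striatum minus cortex).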

How the results depend on the processing

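Every one of the 17 genes kept its direction under all alternatives and with each library left out. For Msh6-/- against wild type, 26 genes were called at an adjusted p of 0.1, 27 by DESeq2, and 2 in the mice with a prefix of at most 21; the first 2 of these held all 17. With no filter, limma voom, RLE scaling, no sex term, the prefix as a covariate, only the 16 libraries, either FPKM scale or the oligodendrocyte covariate the count was 13 to 21. Leaving out 1 of the 16 libraries gave 15 to 26 genes, the highest without Msh6-/- 16-3. For Q140 Msh6-/- against Q140 the count was 50 with no filter and 14 without Q140 Msh6-/- 21-3, and for the difference with Q140 it was 1 at an adjusted p of 0.1 and 1 in DESeq2. For striatum minus cortex, the fit with no replicate block called 0 genes, against 1 with the animal block. The cause of these differences was not tested. Htt, near 0, changed sign without Msh6-/- 16-3 (0.01), without Msh6-/- 24-3 (0.00) and with the oligodendrocyte covariate (0.01), with -0.02 to 0.01 over the left-out libraries; Msh3 did so without wild type 13-1, with -0.06 to 0.01.

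With 8 mice a group, genes near 1 CPM rest on few reads, and genes under the count filter were not tested. The comparison has no means of separating genotype from animal number prefix above 21, and every Msh6-/- male lies there.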
